A study of Homo sapiens with 3 samples.

Results

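The imprinted non-coding RNA domains described here are 3 stretches of the human genome (hg19), each taken on 1 strand, in which CSTF2tau-bound RNA was measured in BE(2)-C cells. The windows were chr14:101190001-101540000 (+), 350 kb with DLK1, MEG3 and the microRNAs of chromosome 14, chr15:25060001-25670000 (+), 610 kb with SNRPN and the snoRNA host SNHG14, and chr11:2600001-2725000 (-), 125 kb with KCNQ1OT1. Every peak lying wholly in a window on that strand was a member, whatever its signal. They numbered 883 of 202310 listed lines (585, 106 and 192 in replicates 1, 2 and 3). Overlapping peaks of all replicates were merged, which left 615 loci of 172167 in the series: 351 in the DLK1-MEG3 window, 168 in the SNRPN-SNHG14 window and 96 in the KCNQ1OT1 window.

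CSTF2tau is a paralogue of CSTF2, the cleavage stimulation factor subunit that contacts G/U-rich RNA downstream of cleavage sites. BE(2)-C is an established human neuroblastoma line, derived from a bone marrow metastasis. The single group holds 3 biological replicates of wild-type (WT) cells with no treatment named, each immunoprecipitated with the anti-CSTF2tau antibody after ultraviolet crosslinking in living cells (sCLIP), a method that sequences the RNA fragments held by a protein. With no input or control antibody library used here, binding and the abundance of the RNA cannot be told apart.

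At imprinted loci, 1 parental chromosome is transcribed and the other is silenced. On chromosome 14 the paternal chromosome expresses DLK1, a membrane protein of the Notch ligand family, and the maternal one expresses MEG3, MEG8 and a long run of snoRNAs and microRNAs that are cut from non-coding transcripts. On chromosome 15 the paternal chromosome expresses SNRPN, a splicing protein gene, and SNHG14, whose introns carry the repeated SNORD116 and SNORD115 snoRNAs and which runs on as the antisense transcript of UBE3A in neurons. KCNQ1OT1 is a long, mostly unspliced paternal transcript, antisense to KCNQ1, known for silencing its neighbours. The lists carry Ensembl gene IDs with no symbols, so regions are given below by ID and hg19 position.

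The chromosome 14 window differs from the others in what it encodes. In the RefSeq table (GRCh38), 49 microRNA hairpins lie between DLK1 and MEG9 on the plus strand, with 92 named mature microRNAs and 81 different seeds, bases 2 to 8, which pair with target RNAs. Of these seeds, 10 are shared by at least 2 of the mature microRNAs. A group of 3 and 2 pairs are shown, with the seed in capitals, to let the shared seeds and the differing bases behind them be seen; how reads that match several similar copies were placed is not given in the sources used here.
hsa-miR-323b-5p: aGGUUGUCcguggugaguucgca
hsa-miR-410-5p: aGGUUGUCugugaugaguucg
hsa-miR-494-5p: aGGUUGUCcguguugucuucucu
hsa-miR-379-3p: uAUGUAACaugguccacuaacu
hsa-miR-411-3p: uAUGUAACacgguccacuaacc
hsa-miR-376a-3p: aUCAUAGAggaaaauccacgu
hsa-miR-376b-3p: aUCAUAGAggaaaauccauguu

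The G/U-rich letters UGUGU, picked because the CSTF2 proteins are known for G/U-rich RNA, stood in 8 of the 49 hairpins (16.3%), against 204 of all 1562 human hairpins in the table (13.1%). The reverse complement ACACA stood in 5 (10.2%), against 102 (6.53%). Both are descriptions of letters, with no test, and no other motif was searched. The MIR134 hairpin, shown with the match in capitals, is the one of the 8 that holds it at separate places. No hg19 sequence was used here, so neither the peaks nor these hairpins could be set against each other.
MIR134: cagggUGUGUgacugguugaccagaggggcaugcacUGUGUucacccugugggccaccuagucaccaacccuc

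The lists held 736059, 108434 and 387784 reads in replicates 1, 2 and 3, in 105203, 18346 and 78761 lines. A read here is a unit of the last whole number in a peak's name, at least 3 in every line, and no source states what it counts. These totals leave out every read outside a listed peak, so sequencing depth is unknown. The minus strand took 63.2% of the nuclear reads of replicate 3, and 48.8% and 50.6% of those of replicates 1 and 2. Intervals are exact 95% Clopper-Pearson intervals and cover counting error only.

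CSTF2tau-bound RNA came from each of the 3 windows in every replicate, with the most from the DLK1-MEG3 window. That window held 2606, 555 and 641 reads in replicates 1, 2 and 3. As a share of all listed reads this was 0.354% (0.341 to 0.368%), 0.512% (0.470 to 0.556%) and 0.165% (0.153 to 0.179%), a mean of 0.344% ± 0.173 (SD, n = 3). Replicate 2 was high and replicate 3 low, a 3.10-fold range in which no intervals overlapped. Divided by the nuclear reads of the plus strand alone, the shares were 0.694%, 1.06% and 0.454%, a 2.35-fold range.

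The SNRPN-SNHG14 window held 952, 66 and 243 reads. Shares were, by replicate, 0.129% (0.121 to 0.138%), 0.0609% (0.0471 to 0.0774%) and 0.0627% (0.0550 to 0.0711%), which average 0.0843% ± 0.0390 (SD, n = 3). Replicate 1 stood above the others, whose intervals overlapped. Many peaks here overlap and are listed under several IDs, and the ID with the most reads was counted in each cluster. With every distinct peak summed instead, the shares were 0.187%, 0.0867% and 0.0802%. Without peaks under several IDs the mean share was 0.0455%.

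The KCNQ1OT1 window was the most even of the 3. It held 499, 106 and 304 reads, a share of 0.0678% (0.0620 to 0.0740%), 0.0978% (0.0800 to 0.118%) and 0.0784% (0.0698 to 0.0877%). The mean was 0.0813% ± 0.0152 (SD, n = 3), with a 1.44-fold range. The interval of replicate 3 overlapped both others, and those of replicates 1 and 2 did not overlap. All of its reads carried 1 gene ID, ENSG00000269821.

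**Figure D1:**
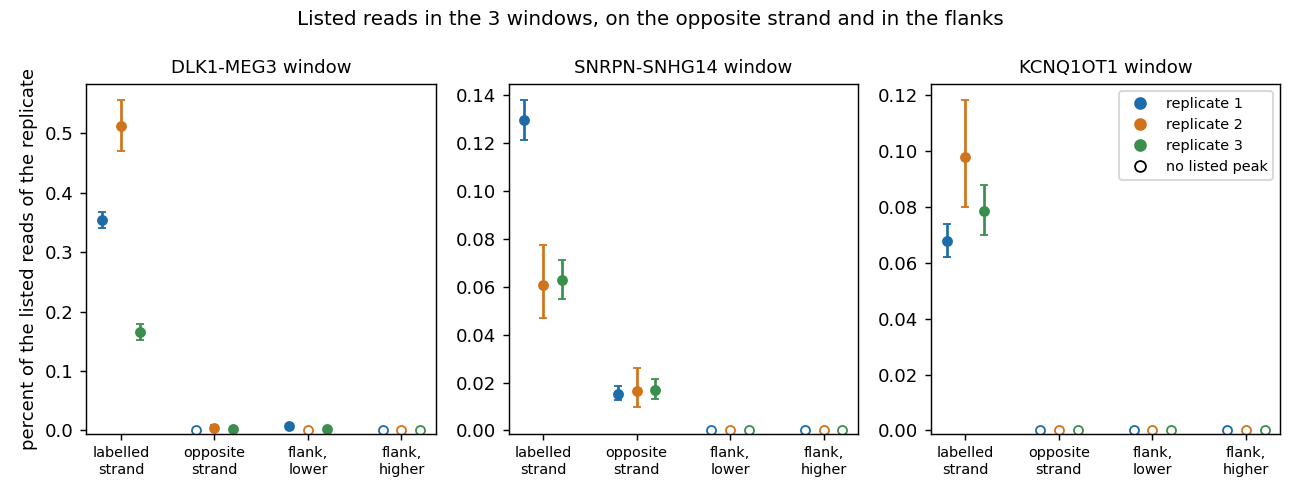
Percent of the listed reads of each replicate (vertical axis, linear, a separate scale per panel) in each window on its labelled strand, on its opposite strand and in the 2 flanks of the same length and strand; points are replicates, bars are exact 95% intervals and open points mark areas with no listed peak. The labelled strand stands above the other areas in every replicate, and the SNRPN-SNHG14 window has listed peaks on its opposite strand in all 3 replicates.

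The signal lay on the labelled strand and inside the windows. On the opposite strand of the KCNQ1OT1 window, where KCNQ1 is transcribed, no replicate had a listed peak. The opposite strand of the DLK1-MEG3 window had no listed peak in replicate 1, 4 reads in replicate 2 and 8 in replicate 3, all under 1 ID between chr14:101348153 and 101349323. The opposite strand of the SNRPN-SNHG14 window had 113, 18 and 65 reads, all under ENSG00000114062 at chr15:25582312-25669610, the far end of the window, where the labelled strand had no listed peak. The log2 ratio of the labelled to the opposite strand there was 3.07, 1.85 and 1.89 (0.5 reads added to each), a mean of 2.27 ± 0.69 (SD, n = 3). All 3 replicates had the same direction in each window (two-sided exact sign-flip test, p = 0.25 for each window, the smallest that 3 replicates allow). The strand was part of the choice of windows, made with earlier results of these data known, so this direction is no independent result.

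The flanks, adjoining stretches of the same length and strand, were nearly empty. The lower flank of the DLK1-MEG3 window had 58, 0 and 11 listed reads in replicates 1, 2 and 3. The other 5 flanks had no listed peak in any replicate. The direction was again the same in all 3 replicates of each window (exact sign-flip test, p = 0.25 for each, the smallest possible). As the windows were placed with earlier results of these data known, this too is no independent result. A flank may hold few annotated genes on that strand, and since every listed peak carries a gene ID, an empty flank does not show that no RNA was bound.

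Per kb of window, the DLK1-MEG3 and KCNQ1OT1 windows were the denser. Reads per kb for every 100000 listed reads were 1.01, 1.46 and 0.472 in the DLK1-MEG3 window, a mean of 0.982 ± 0.496 (SD, n = 3). They were 0.542, 0.782 and 0.627 in the KCNQ1OT1 window, a mean of 0.651 ± 0.122, and 0.212, 0.0998 and 0.103 in the SNRPN-SNHG14 window, a mean of 0.138 ± 0.0640. The SNRPN-SNHG14 window was below the DLK1-MEG3 window by a log2 ratio of -2.25, -3.86 and -2.20 and below the KCNQ1OT1 window by -1.36, -2.97 and -2.61, in each of 3 replicates (exact sign-flip test, p = 0.25 each, adjusted p = 0.375 over 3 pairs). The other pair had no common direction: the log2 ratio of KCNQ1OT1 to DLK1-MEG3 was -0.90, -0.90 and 0.41 (exact sign-flip test, p = 0.5, adjusted p = 0.5). These windows lie on opposite strands, and with each divided by the reads of its own strand the ratio was -0.83, -0.93 and -0.37, lower in 3 of 3 replicates, with a mean of -0.71 ± 0.30 (SD; exact sign-flip test, p = 0.25, the smallest possible). A window's edges set its length, so these ratios also count stretches without listed peaks. Ratios over the listed spans alone were not calculated. From the first to the last listed peak of any replicate, gaps included, the span was 29.5% of the SNRPN-SNHG14 window. It was 62.2% and 98.8% of the KCNQ1OT1 and DLK1-MEG3 windows. In the same order, 28 of 122, 15 of 25 and 30 of 70 bins of 5 kb had reads in any replicate.

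**Figure D2:**
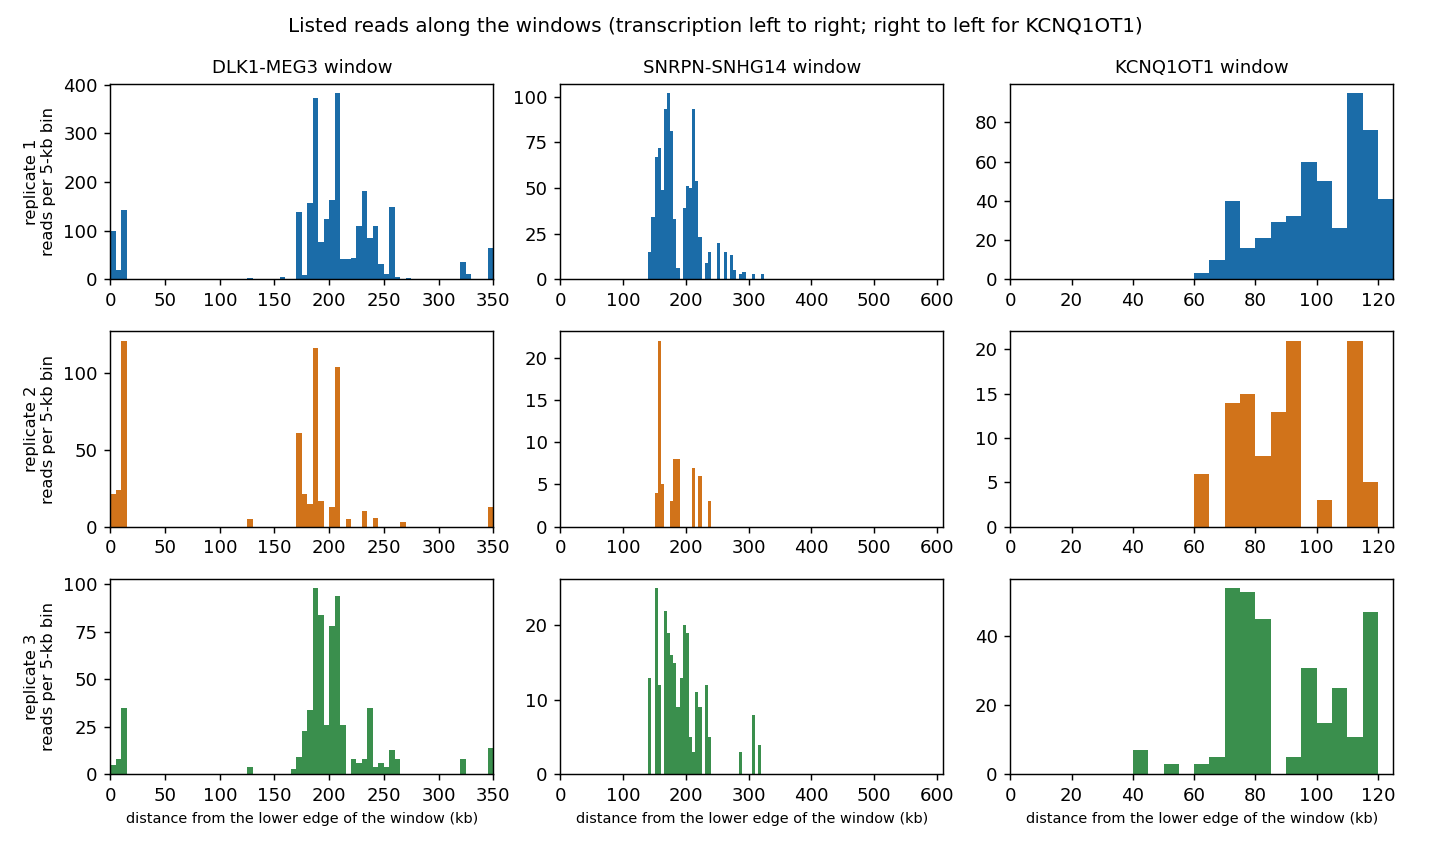
Listed reads in consecutive 5-kb bins (vertical axis, linear, a separate scale per panel) against the distance from the lower edge of each window in kb; rows are replicates and columns are windows. Reads of the DLK1-MEG3 window sit in a block near the lower edge and a broader block in the middle, and those of the SNRPN-SNHG14 window follow a gap of 141 kb and end before a gap of 289 kb. In the KCNQ1OT1 window, transcribed from right to left, no replicate has reads in the first 42.9 kb from the lower edge, and the bin at the higher edge has reads in replicate 1 alone.

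Along the DLK1-MEG3 window, reads fell into separate blocks, of which the first and the main one were found in all 3 replicates. The first block, ENSG00000185559 at chr14:101193392-101201475 (+), held 260, 166 and 48 reads, which is 9.98%, 29.9% and 7.49% of the window. No peak was listed from chr14:101201476 to 101315738, a gap of 114 kb, and few before chr14:101359910. The main block, ENSG00000258399 at chr14:101361439-101402176 (+), held 1458, 335 and 468 reads, or 55.9%, 60.4% and 73.0% of the window. It was the ID with the most reads of the window in every replicate. Which symbols these IDs carry, and which genes lie in the gap, was not analysed here. How many of the window's reads, if any, belong to MEG3 is therefore not known.

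Behind the main block each ID held fewer reads. ENSG00000225746 (chr14:101406742-101426441) held 454, 13 and 33 reads, and was thus 17.4% of the window in replicate 1 but 2.34% and 5.15% in the others. ENSG00000232018 (chr14:101426946-101433276) held 108, 3 and 24 reads, and ENSG00000271417 (chr14:101434399-101451726) held 203 and 31 in replicates 1 and 3 and was not listed in replicate 2. A gap of 51.5 kb without listed peaks followed, from chr14:101460656 to 101512180. Near the far edge, ENSG00000258861 had 46, 0 and 8 reads and ENSG00000223403 (chr14:101536991-101539362) had 64, 13 and 14. Of the 21 gene IDs of the window, 12 were listed with a single line over all replicates, 6 were found in all 3 replicates and 12 in exactly 1. All but 5 IDs had fewer than 100 reads in every replicate.

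The first block leaned to the downstream end of its listed span and the main block did not. Within the last 1 kb of the 8.08 kb span of ENSG00000185559 lay 142, 121 and 35 of its reads, or 54.6%, 72.9% and 72.9%. In the 40.7 kb span of ENSG00000258399 the last 1 kb held 23, 0 and 14 reads, or 1.58%, 0% and 2.99%. The end of a listed span is not an annotated cleavage site, the spans differ in length, and the difference was not tested.

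The densest 5-kb bins of the window were chr14:101375001-101380000 with 372, 116 and 98 reads and chr14:101395001-101400000 with 383, 104 and 94. They held 16.8% ± 3.57 and 16.0% ± 2.34 of the window's reads (SD, n = 3), both inside the main block. Next was chr14:101200001-101205000, the end of the first block, with 142, 121 and 35 reads. Its share of the window was 21.8% in replicate 2 against 5.45% and 5.46% in replicates 1 and 3.

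In the SNRPN-SNHG14 window, reads fell off along the direction of transcription. The listed span ran from chr15:25200584 to 25380588, 180 kb, and the first of 4 equal stretches held 546, 42 and 122 reads (57.4%, 63.6% and 50.2%) in replicates 1, 2 and 3. The second held 316, 21 and 89 reads (33.2%, 31.8% and 36.6%), the third 72, 3 and 17, and the last 18, 0 and 15. The order was the same in every replicate. The 5-kb bin with the highest mean share was chr15:25215001-25220000, with 72, 22 and 12 reads, where replicate 2 had 33.3% of its window reads and the others 7.56% and 4.94%. From chr15:25380589 to the window's end, 289 kb, no peak was listed in any replicate, and the same held for the 141 kb before the first peak. The repeated snoRNA copies are near-identical, and how multiply matching reads were placed is not given in the sources used here. Which of these stretches hold such copies was not analysed, and why they have no listed peak was not tested.

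Several IDs overlapped in this window. ENSG00000224078 (chr15:25223847-25380588) was listed with 720, 35 and 193 reads, or 75.6%, 53.0% and 79.4% of the window. ENSG00000214265 (chr15:25200609-25242444) had 218, 27 and 68 reads and ENSG00000128739 (chr15:25200584-25222097) had 216, 26 and 50. These shares add up to more than the whole because 69 of the 168 loci (41.1%) carried several IDs, against 4.54% of all loci of the series. ENSG00000272846 and ENSG00000273173, with 148 and 67 reads in replicate 1, were not listed in replicates 2 and 3. The version suffix of the ID differed between replicates 1 and 2 for 46.5% of 4723 shared IDs of the series and for none of 4640 between replicates 2 and 3, a difference whose part in these values was not tested.

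In the KCNQ1OT1 window, transcribed from the higher to the lower coordinate, the listed span of 77.7 kb ended at chr11:2720663 and began at chr11:2642924. Of 4 equal stretches, the one at the higher, 5′ end held 264, 29 and 98 reads, or 52.9%, 27.4% and 32.2%. The farthest had no listed peak in replicate 1 and 6 and 10 reads in the others, or 5.66% and 3.29%. Between them the replicates differed: the third stretch from the 5′ end held 17.4% and 27.4% in replicates 1 and 2 but 49.7% in replicate 3. The middle read lay 18.9, 32.7 and 39.1 kb from the 5′-most peak, nearest in replicate 1 and farthest in replicate 3. The bin with the highest mean share was chr11:2710001-2715000, with 95, 21 and 11 reads, and the next was chr11:2670001-2675000, with 40, 14 and 54.

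Over 5-kb bins the profiles of the replicates correlated more closely with empty bins included than without. Across the 70 bins of the DLK1-MEG3 window, Spearman's rho was 0.68 between replicates 1 and 2, 0.90 between 1 and 3 and 0.66 between 2 and 3. Over its 30 bins with any read it was 0.49, 0.70 and 0.48. In the SNRPN-SNHG14 window it was 0.57, 0.77 and 0.55 over 122 bins and 0.34, 0.47 and 0.17 over 28 with reads. In the KCNQ1OT1 window it was 0.65, 0.68 and 0.58 over 25 bins and 0.29, 0.29 and 0.25 over 15. Bins share genes, libraries and mappability, so these values describe the lists and carry no p.

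At single positions, 53 of 351 loci of the DLK1-MEG3 window (15.1%), 23 of 168 of the SNRPN-SNHG14 window (13.7%) and 17 of 96 of the KCNQ1OT1 window (17.7%) were found in at least 2 replicates, beside 8.57% of all loci of the series. In all 3 replicates were 9, 1 and 2 loci, beside 0.889% of the series. These shares were not matched on reads per locus, and no test was made. Without peaks under several IDs, the SNRPN-SNHG14 window had 4.46%, beside 8.20% in the series. For peaks of at least 5 reads the DLK1-MEG3, SNRPN-SNHG14 and KCNQ1OT1 windows had 17.1%, 8.91% and 9.09%, beside 8.62%. For the stronger part of each list, with p no higher than its median, they had 19.0%, 10.6% and 10.7%, beside 8.80%. In the SNRPN-SNHG14 and KCNQ1OT1 windows these shares are near the background. With 1 replicate left out, a locus had to be in both others: without replicate 1, 2 or 3 the DLK1-MEG3 window gave 13.8%, 10.1% and 6.02%, the SNRPN-SNHG14 window 3.17%, 9.82% and 5.22%, and the KCNQ1OT1 window 9.09%, 12.6% and 7.25%, beside 3.43%, 6.52% and 3.72% of the series.

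**Figure D3:**
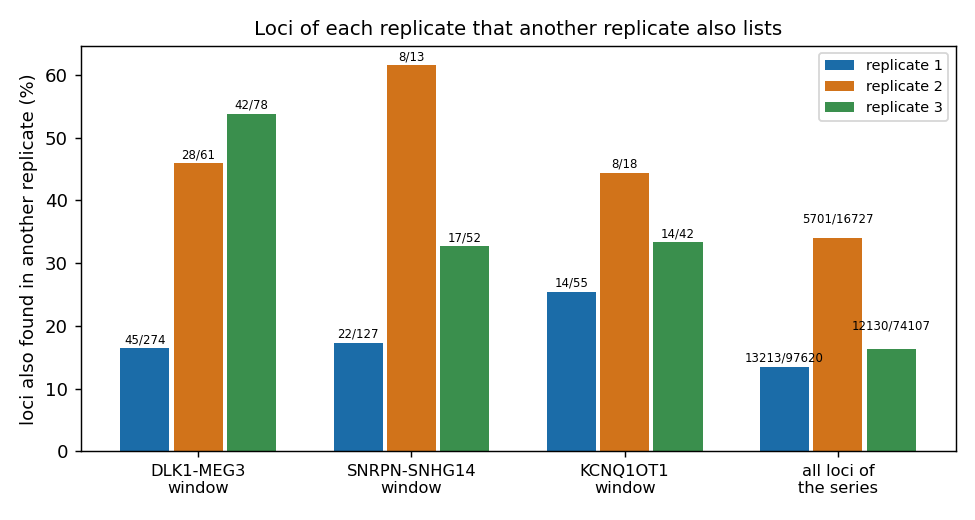
Percent of the loci of each replicate that at least 1 other replicate also lists (vertical axis, linear from 0), for the 3 windows and all loci of the series; the numbers on the bars are shared loci over loci. The DLK1-MEG3 window reaches 53.8% in replicate 3, where all loci of the series stand at 16.4%.

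Seen from each replicate, the share of its loci also listed elsewhere was lowest in replicate 1, the longest list, in every window and in the series. It was highest in replicate 2, the shortest, except in the DLK1-MEG3 window, where replicate 3 led. In the DLK1-MEG3 window, another replicate also listed 45 of the 274 loci of replicate 1 (16.4%), 28 of the 61 of replicate 2 (45.9%) and 42 of the 78 of replicate 3 (53.8%), beside 13.5%, 34.1% and 16.4% in the series. Loci with at least 10 reads there were shared in 31 of 67, 15 of 22 and 19 of 23 cases, or 46.3%, 68.2% and 82.6%, beside 28.5%, 61.2% and 57.1%. In replicate 1, adjoining narrow peaks of the main block became 1 locus with summed reads where a peak of another replicate spanned them. This raises the reads of shared loci, so the 46.3% is partly built in, by an amount that was not tested. Below 5 reads, 3 of 111 loci of replicate 1 were shared (2.70%), beside 7.26% in the series. In the SNRPN-SNHG14 window 22 of 127, 8 of 13 and 17 of 52 loci were shared. In the KCNQ1OT1 window they were 14 of 55, 8 of 18 and 14 of 42. In these windows a locus with at least 10 reads in replicate 1 was shared in 5 of 27 and 6 of 17 cases, or 18.5% and 35.3%, beside the series' 28.5%. In replicate 2 these were 1 of 1 and 2 of 2, and in replicate 3 they were 0 of 1 and 3 of 11 (27.3%), beside 57.1%.

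**Figure D4:**
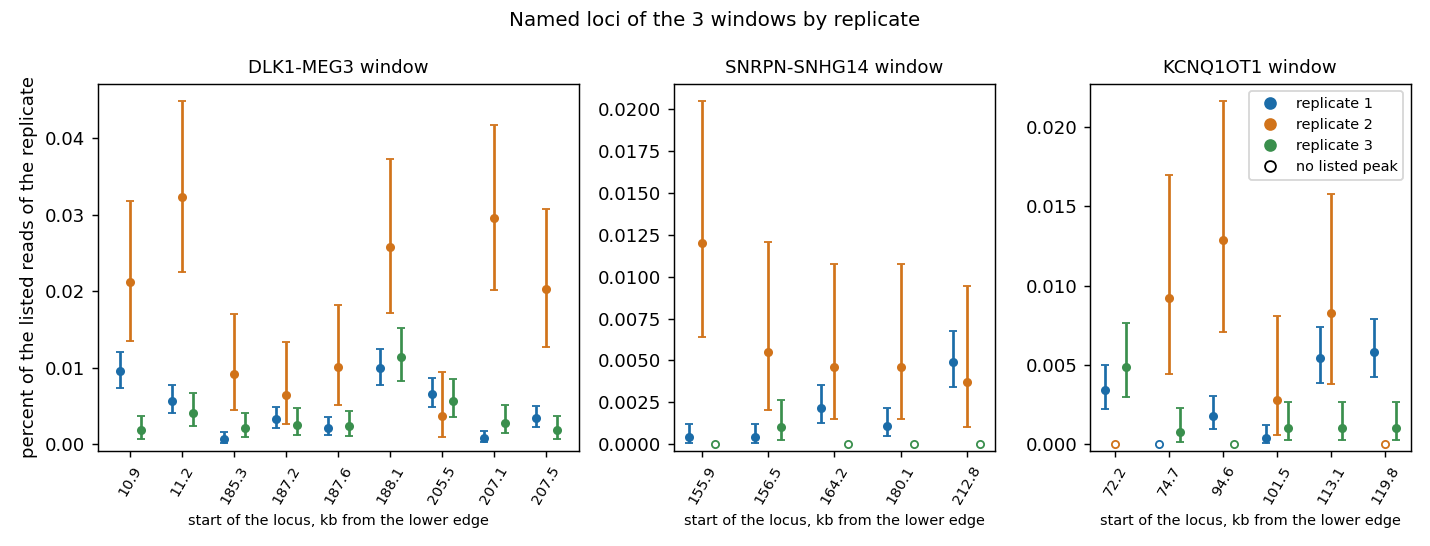
Percent of the listed reads (vertical axis, linear, a separate scale per panel) at each named locus in each replicate with exact 95% intervals; the horizontal axis gives the start of the locus in kb from the lower edge of its window, and open points mark replicates without a listed peak. Replicate 2 is the highest at 8 of the 9 loci of the DLK1-MEG3 window, which were picked for peaks in all 3 replicates. This choice favours high shares in replicate 2, where the minimum of 3 reads is 0.00277% of the list. In replicates 1 and 3 the same 3 reads are 0.000408% and 0.000774%.

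Of the 9 loci that the DLK1-MEG3 window had in all 3 replicates, 7 lay in the main block and 2 at the end of the first. The highest mean share was at chr14:101378130-101378331 (+), with 73, 28 and 44 reads, which is 0.00992%, 0.0258% and 0.0113% of the listed reads. The mean was 0.0157% ± 0.0088 (SD, n = 3), with replicate 2 the highest. At the end of the first block, chr14:101201206-101201370 (+) had 42, 35 and 16 reads, a mean of 0.0140% ± 0.0158, and chr14:101200892-101201121 (+) had 70, 23 and 7, a mean of 0.0108% ± 0.0098. Both are led by replicate 2, which the choice of loci listed in all 3 replicates favours, its list being the smallest.

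Other loci of the main block ranged from more even to far less even. The reads at chr14:101397094-101397155 (+) were 6, 32 and 11, a 36.2-fold range of shares. Nearby, chr14:101397513-101397591 (+) had 25, 22 and 7 reads, and chr14:101395455-101395561 (+) had 48, 4 and 22, the most even of the 9 with a 1.77-fold range. The remaining 3 lay at chr14:101375295-101375392, chr14:101377190-101377282 and chr14:101377650-101377723, with 5 to 24 reads in any replicate.

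The strongest locus of replicate 1 in the windows had no listed peak in the smallest list. At chr14:101397842-101397931 (+), named here after its values were seen, replicate 1 had 123 reads, replicate 3 had 10 and replicate 2 had no listed peak. The 123 reads were listed in adjoining narrow peaks, the largest 23 nt wide with 73 reads. An 84-nt peak of replicate 3 joined these into 1 locus. By the ratio of list totals, 123 reads correspond to 18.1 in replicate 2 and 64.8 in replicate 3. Over the 3 windows, 37 loci had at least 21 reads in replicate 1, which corresponds to 3.09 reads in replicate 2, the lowest number listed being 3. Of these 37, 17 (45.9%) were in neither other replicate, beside 53.2% of 3373 such loci of the series. As joining by a peak of another replicate adds up the reads of narrow peaks, loci present elsewhere reach 21 reads more easily.

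In the SNRPN-SNHG14 window 1 locus was in all 3 replicates, chr15:25216505-25216685 (+), with 3, 6 and 4 reads. The highest mean share, 0.00413% ± 0.00681 (SD, n = 3), was at chr15:25215867-25215957 (+), with 3 and 13 reads in replicates 1 and 2 and no listed peak in replicate 3. Next was chr15:25272791-25273031 (+), with 36 and 4 reads in replicates 1 and 2. The 2 further loci, chr15:25224168-25224275 with 16 and 5 reads and chr15:25240141-25240238 with 8 and 5, were likewise not listed in replicate 3. At 3 to 6 reads, presence or absence of a peak lies at the lists' own minimum.

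In the KCNQ1OT1 window the 2 loci in all 3 replicates were chr11:2713130-2713438 (-), with 40, 9 and 4 reads, and chr11:2701486-2701550 (-), with 3, 3 and 4. The first had a mean share of 0.00492% ± 0.00366 (SD, n = 3). A locus of about the same mean, chr11:2694613-2694771 (-), had 13 and 14 reads in replicates 1 and 2 and no listed peak in replicate 3. Farther from the 5′ end, chr11:2672184-2672355 (-) was instead listed with 25 and 19 reads in replicates 1 and 3. The last were chr11:2674727-2674846 (-), with 10 and 3 reads in replicates 2 and 3, and chr11:2719811-2720172 (-), nearest the 5′ end, with 43 and 4 in replicates 1 and 3.

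Each peak also carries a stretch of at most 4 nt within it, a readout that the choice of windows did not use. Between replicates these stretches lay a median of 24 nt apart in the 53 shared loci of the DLK1-MEG3 window, 26 nt in the 23 of the SNRPN-SNHG14 window and 35 nt in the 17 of the KCNQ1OT1 window, beside 25 nt over all 14757 shared loci of the series. They were within 10 nt of each other in 21 of the 93 (22.6%), beside 23.4% of the series. No test was made.

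**Figure D5:**
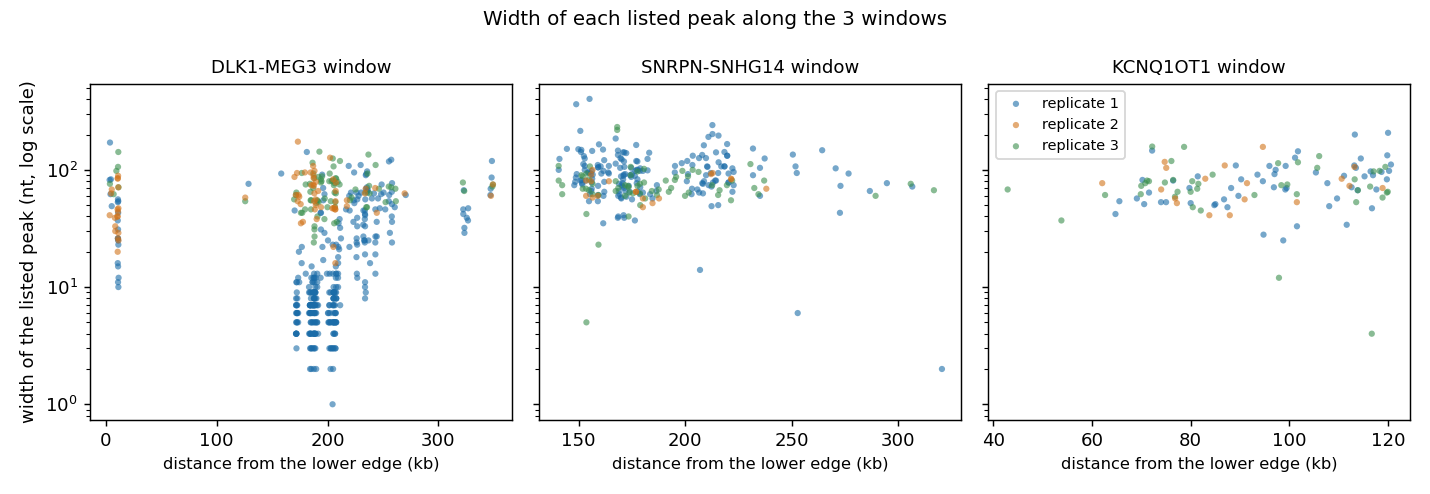
Width of each listed peak in nt (vertical axis, log scale) against its distance from the lower edge of the window in kb; colours are replicates. In replicate 1 the main block of the DLK1-MEG3 window, in the middle, is listed in peaks mostly under 20 nt wide, while replicates 2 and 3 have a median of 59 and 64 nt there.

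The main block of the DLK1-MEG3 window was listed in fragments in replicate 1. The 225 peaks of ENSG00000258399 there had a median width of 7 nt, and 204 were under 20 nt. The median peak had 4 reads. In replicates 2 and 3 the same ID had 37 and 51 peaks with median widths of 59 and 64 nt and 7 and 9 reads. This was rare: of 1204 gene IDs with at least 20 peaks in replicate 1, 16 (1.33%) had a median width under 20 nt, and in the windows this was the one such ID. The covered length was 2316, 2381 and 3429 nt. Over all distinct peaks of replicate 1 the median width was 79 nt.

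With peaks of at least 20 nt alone, the DLK1-MEG3 window held 1432, 529 and 641 reads, or 0.202%, 0.497% and 0.167% of the reads, so the value of replicate 1 fell from 0.354% and stood near that of replicate 3. The mean was then 0.288% ± 0.181 (SD, n = 3). The share of loci in at least 2 replicates was 17.5% of 211, beside 8.6% of the 168300 loci of the series by this limit. The KCNQ1OT1 and SNRPN-SNHG14 windows had means of 0.0823% and 0.0860% by the same limit.

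In replicate 1 the median peak width of the other windows was nearer to that of the series. It was 92.5 nt in the SNRPN-SNHG14 window and 78.5 nt in the KCNQ1OT1 window, beside 79 nt. The median peak had 6, 4 and 4 reads in the SNRPN-SNHG14 window and 7, 4.5 and 6 in the KCNQ1OT1 window, beside 5, 4 and 4 in the series. The 5 clusters with the most reads held 9.90%, 19.8% and 19.5% of the DLK1-MEG3 window in replicates 1, 2 and 3. The value of replicate 1 counts adjoining narrow peaks separately, 338 clusters in all, and is not comparable with the others. In the KCNQ1OT1 window the top 5 held 25.3%, 47.2% and 25.7%, and in the SNRPN-SNHG14 window 13.6%, 57.6% and 18.1%. There replicate 2 had 13 clusters in all, the largest with 13 of its 66 reads.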

How the data were processed

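Peak lists of 3 sCLIP libraries were used, 1 per replicate. Per the submitters' processing notes, FastQC, STAR, SAMtools and bedtools were used with hg19. Their versions, the peak caller and the annotation are not given in the sources used here. Each peak's p-value, as deposited by the authors, below 0.05 in every list, served to filter peaks. Reads come from the last number of the peak name, which ranked against the p-value with a Spearman's rho of -0.988, -0.973 and -0.964.

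Overlapping peaks (at least 1 nt, same strand) were merged within a replicate, where a cluster took its reads from the gene ID with the most, and over replicates into loci. Shares were divided by all listed reads. Ratios carry 0.5 reads on each side. Named loci were those in all 3 replicates and, in each window, the 5 in at least 2 replicates with the highest mean share. IDs with at least 20% of a window's reads in any replicate were named, and others are given with their values. Of 13356 gene IDs, 0 could be paired with a symbol, so the lists of domain genes were not analysed here. Windows, lists and rules were chosen with earlier results of these data known. Merging and counting were tested on simulated lists of equally wide peaks at well separated sites. These held no adjoining narrow peaks and, within a replicate, no unequal overlapping peaks under several IDs. Python 3.11.15, pandas 2.3.3 and scipy 1.17.1 were used.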

Additional observations from a re-analysis of the deposited data

Results flagged for a closer look

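The running number in the peak names was used in no comparison. Counting from 1 to the top number seen for each gene ID of the windows, 66.6%, 32.9% and 45.3% of numbers (replicates 1, 2 and 3) belonged to no line of the lists. It was noted because a count without gaps would leave none. What a missing number stands for is not stated in the sources used here and was not tested.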

How the results depend on the processing

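Of 156 alternative values, 134 stayed within their limit, 22 moved and none changed direction; the limit was 1 SD of the replicates for shares and correlations, the exact interval for the percent of loci, and the direction for the 72 ratios, none of which can pass p = 0.25. Ratios were formed within each replicate, and with 1 group there was no comparison between groups to pair. No alternative moved the edges of the windows. Widths, same-strand totals and summed positions were chosen after seeing the data. The share of the KCNQ1OT1 window was 0.100% with the stronger part of each list, p no higher than the median (stricter p). That of the SNRPN-SNHG14 window was 0.125% with each peak counted once. With totals of the same strand, which are smaller by construction, the 3 mean shares were 0.737%, 0.184% and 0.154%. Loci in at least 2 replicates were 10.7% and 9.09% of the KCNQ1OT1 window with stricter p and with at least 5 reads, and 4.46% of the SNRPN-SNHG14 window without peaks under several IDs. Leaving out 1 replicate gave 6.02 to 13.8%, 3.17 to 9.82% and 7.25 to 12.6% in the DLK1-MEG3, SNRPN-SNHG14 and KCNQ1OT1 windows. The mean rho of 5-kb bins, 0.63 and 0.64 in the SNRPN-SNHG14 and KCNQ1OT1 windows, was 0.49 and 0.49 with stricter p, 0.42 and 0.49 with at least 5 reads, and 0.86 with 10-kb bins in the KCNQ1OT1 window. Without 1 replicate it was 0.66 to 0.90, 0.55 to 0.77 and 0.58 to 0.68. Where the cause is not given, the cause was not tested. The lists' minimum of 3 reads limits what replicate 2, the smallest, can show.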
